A study of Rattus norvegicus with 71 samples.

Results

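The numbered Zfp genes are the rows of the count table whose symbol is Zfp followed only by digits. The table held 162 such rows, and 159 of them had 8 or more of the 71 libraries at a level of 1 CPM (counts scaled to the library's total) or above, among 12477 genes that passed the same filter. The just-excluded rows were Zfp831, with 1 library at the bound and a highest level of 1.03 CPM, Zfp474, with a highest level of 0.932 CPM, and Zfp352, with a highest level of 0.0737 CPM. The members nearest the bound from above were Zfp54, with 46 libraries at 1 CPM or more, Zfp951 with 51 and Zfp93 with 63.

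The animals were wild-type Sprague-Dawley rat pups taken at postnatal day 2 (PND2). Exposure was by dam: before breeding, dams were immunized with peptide epitopes of the named brain proteins in Freund's adjuvant, and control dams received adjuvant with saline, so that control pups shared the adjuvant exposure. RNA came from 1 coronal slice per pup that held the hippocampus with neighbouring cortical and subcortical structures, according to the sample labels, whereas the series' design text names frontal cortex and hypothalamus. The 24 controls came from 7 litters. The 47 pups exposed to maternal autoantibodies related to autism (MARA-AB) came from 20 litters: 8 pups to CRMP1+CRMP2, 8 to STIP1+NSE, 6 to CRMP1+GDA and 25 to LDHA/B+CRMP1+STIP1. Titles fall into a MAR_C3 series, with pups of all 5 groups, and a series titled IgG, RNA or FcRn, with 12 controls and 16 LDHA/B+CRMP1+STIP1 pups only. Littermates share a dam, so the unit that received the treatment was the litter, and a p-value over pups counts littermates as separate samples.

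Most Zfp proteins bind DNA through arrays of C2H2 zinc fingers, each of which contacts a few bases. Many carry a KRAB domain that recruits the corepressor Trim28, which in turn brings the histone methyltransferase Setdb1, and the best known role of such proteins is to silence transposable elements and to keep imprinted regions methylated. The genes often lie in clusters, and other proteins with the same kind of finger bind RNA or act in ubiquitin ligases. In the developing brain, single members are known for roles in the cell cycle, the migration and the fate of neural progenitors.

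The members were long genes at modest levels. Their median exonic length was 2817 bases against 2226 for all genes tested, and 71 of the 159 (44.7%) exceeded 3000 bases against 31.2%. A single exon interval held at least 50% of the length in 129 members. Chromosome 1 carried 43 members (27% against 12.4% of all genes tested), and 62 members lay within 100 kb of another numbered Zfp row. Related genes that lie in clusters can share reads, and how the authors' counting placed them was not tested. Exons of 5 members overlapped another row: Zfp207 with Mir632, Zfp428 with Srrm5, Zfp57 with Mog, Zfp219 with Arhgef40 and Zfp142 with Plcd4, so their counts are uncertain to that extent.

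The promoters of the members held more CpG than the promoters of all genes with an entry. That background was not filtered by level, whereas the members were. The promoters of the genes tested were not set beside them as a group, so the part of the filter in these shares was not tested. In RefSeq's assembly GRCr8, 131 of the 159 members had a promoter entry and 28 had none. In the 250 bases before the start, the median GC content was 57.6% and the median number of CpG was 14, against 52.0% and 6 over 27457 promoters. On both strands, the GC box GGGCGG was in 46.6% of the member promoters and 32.4% of all, the ETS core CCGGAA in 28.2% and 13.4%, the CCAAT box in 38.2% and 34.3%, the NRF1 core TGCGCA in 15.3% and 6.6%, the ZNF143 core ACTACAA in 8.4% and 3.0%, and the TATA box TATAAA in 8.4% and 13.1%. These shares describe letters and are not evidence of binding. Shown here are the 3 members with the smallest p in pups exposed to CRMP1+CRMP2 (Zfp112, Zfp217 and Zfp398), whose results are given further on, and the 3 with the smallest p between the control series (Zfp575, Zfp641 and Zfp609). Each runs 5′ to 3′ on the strand of the gene, with matches to the motifs above, on either strand, in capitals.
Zfp112, chr1:88804583-88804832, plus strand: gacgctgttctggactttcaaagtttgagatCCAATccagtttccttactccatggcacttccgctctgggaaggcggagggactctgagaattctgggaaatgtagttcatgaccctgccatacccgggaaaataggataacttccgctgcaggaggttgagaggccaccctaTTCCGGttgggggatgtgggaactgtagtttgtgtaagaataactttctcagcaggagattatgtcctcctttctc
Zfp217, chr3:179321694-179321943, minus strand: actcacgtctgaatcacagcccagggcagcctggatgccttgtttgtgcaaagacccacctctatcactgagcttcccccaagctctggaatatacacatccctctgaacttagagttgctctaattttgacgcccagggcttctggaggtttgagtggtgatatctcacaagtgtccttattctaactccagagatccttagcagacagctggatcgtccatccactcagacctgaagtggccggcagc
Zfp398, chr4:78180376-78180625, plus strand: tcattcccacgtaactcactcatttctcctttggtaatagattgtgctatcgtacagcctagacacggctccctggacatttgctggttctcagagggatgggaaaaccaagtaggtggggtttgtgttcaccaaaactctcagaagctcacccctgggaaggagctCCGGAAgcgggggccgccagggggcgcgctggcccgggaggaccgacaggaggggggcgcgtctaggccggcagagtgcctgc
Zfp575, chr1:89305035-89305284, minus strand: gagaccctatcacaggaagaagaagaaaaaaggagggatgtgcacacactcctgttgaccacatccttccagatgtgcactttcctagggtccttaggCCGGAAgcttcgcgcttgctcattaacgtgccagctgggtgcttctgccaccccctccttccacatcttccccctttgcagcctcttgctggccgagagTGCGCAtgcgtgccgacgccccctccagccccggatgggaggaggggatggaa
Zfp641, chr7:131323692-131323941, minus strand: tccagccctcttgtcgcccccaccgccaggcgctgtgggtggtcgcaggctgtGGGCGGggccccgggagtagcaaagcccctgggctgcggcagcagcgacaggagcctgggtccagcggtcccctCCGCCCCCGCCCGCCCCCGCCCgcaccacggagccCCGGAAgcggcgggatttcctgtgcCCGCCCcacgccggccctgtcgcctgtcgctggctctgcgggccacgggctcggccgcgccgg
Zfp609, chr8:75213087-75213336, minus strand: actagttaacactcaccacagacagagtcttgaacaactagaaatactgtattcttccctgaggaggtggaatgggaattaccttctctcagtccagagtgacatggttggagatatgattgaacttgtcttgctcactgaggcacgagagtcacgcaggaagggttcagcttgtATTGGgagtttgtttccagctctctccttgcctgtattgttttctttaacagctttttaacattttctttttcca
Zfp112 held a CCAAT box and an ETS core, and Zfp398 an ETS core. Zfp217 held none of the 6 motifs. Zfp641 had 6 GC boxes, at 78.4% GC, and Zfp609 had a single CCAAT box at 42.4% GC. Zfp575 held an ETS core and an NRF1 core. The 6 promoters thus differed in composition.

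Library depth ranged from 24880182 to 36234952 counts with a median of 28439195, so that 1 CPM was 24.9 to 36.2 counts. Members took 0.541% to 0.697% of a library. In all 35 males the Y-linked Eif2s3y was above the highest of the 36 females. The smallest chi-square per gene between any pair of libraries was 5.71, so that no library was a copy of another. Hippocampal markers were present in every group (6 of 6 in the table, summed level 303.3 to 648.1 CPM), as were cortical ones (6 of 6, 520.9 to 1806 CPM).

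Levels are compared between genes per length, in RPKM (CPM divided by the length in kilobases), as medians over the 71 pups. The median member stood at 9.11 RPKM against 13.1 for all genes tested, 120 members were above 5 RPKM and 6 were below 1. The highest was Zfp207 (rn7 chr10:65385823-65397591), a spindle and splicing protein, at 87.2 RPKM with a range of 72.1 to 110.8. Zfp428 at 72.0 and Zfp580 at 68.3 RPKM followed. The ranges of neighbouring genes in that order overlapped. The lowest was Zfp541, at 0.279 RPKM.

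**Figure D1:**
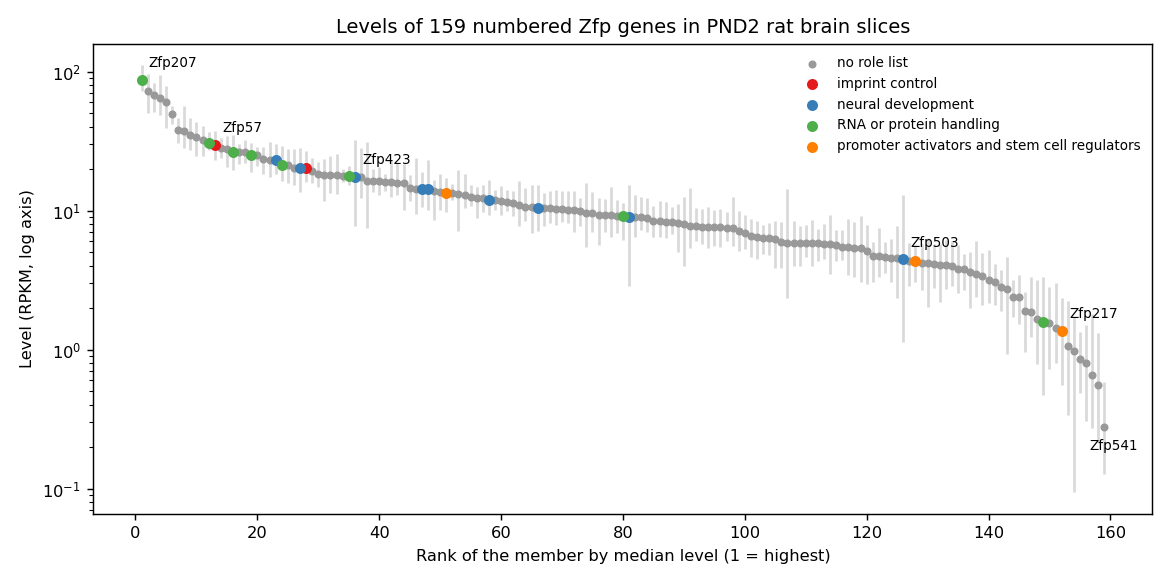
Level of each of the 159 numbered Zfp genes in RPKM (log axis) by rank, as the median (point) and the range (line) over 71 pups, coloured by role list. Levels run from 87.2 (Zfp207) to 0.279 RPKM (Zfp541), and the lines are longest for a few genes such as Zfp503 and Zfp423.

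By role, the 2 imprint guardians in the table, Zfp57 (29.6 RPKM, range 23.1 to 37.4) and Zfp445 (20.2, range 15.97 to 26.7), were both in the upper part of the order. Among the genes known for RNA or protein handling, Zfp91, a ubiquitin ligase, was at 30.8, Zfp638, an RNA-binding protein of the nucleus, at 26.5, Zfp622, which acts in ribosome maturation, at 25.1, Zfp598, the ubiquitin ligase of collided ribosomes, at 21.4, and Zfp346, which binds double-stranded RNA, at 17.7 RPKM. Zfp830 was at 9.11 and Zfp36, which marks AU-rich messages for decay, at 1.57 RPKM. Of the 8 genes of this list, Zfp207 included, only Zfp36 lay below the median member.

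Among the genes of neural development, Zfp423, a cofactor in midline and cerebellar development, had a median of 17.5 RPKM and ran from 7.74 to 32.2. Zfp503, a striatal gene of the Nolz family, had 4.45 RPKM and ran from 1.13 to 13.0, and Zfp521 had 9.01 and ran from 2.87 to 15.3. The highest pup was thus several times the lowest for these genes, which were picked for their wide ranges. The other genes of this list had medians of 23.2 (Zfp148), 20.3 (Zfp335), 14.3 (Zfp24, needed for myelination), 14.2 (Zfp703), 12.0 (Zfp365) and 10.5 RPKM (Zfp292). Of the promoter activators and stem cell regulators, Zfp281 stood at 13.4, Zfp143 at 4.31 and Zfp217, found in corepressor complexes, at 1.36 RPKM. Across members, the median SD of log2 level within a group and series was 0.166 to 0.202, and within litters 0.110 to 0.160, so littermates were closer to each other than pups of a group were. All genes tested had 0.182 to 0.219 within groups.

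The first comparison asked how far the members differed between unexposed pups of the 2 series. In MAR_C3 controls against IgG/RNA/FcRn controls (12 and 12), 47 members were lower and 9 higher by edgeR's quasi-likelihood test at a Benjamini-Hochberg false discovery rate (FDR) under 0.1, or 29.6% and 5.66% of members, where 20.1% and 21.4% of all genes were called. The median member was 0.079 lower on the log2 scale, and 48 of 159 (30.2%) were above 0 against 50.5% of all genes. With counts summed per litter, 9 were lower and 4 higher, and 15.6% of all genes were called. The authors prepared 2 experimental batches separately, and the composition of the batches matches the title series, so that batch, dissection and series cannot be told apart here.

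Zfp575 (rn7 chr1:80175016-80177123) and Zfp641 (chr7:129434576-129444644) were the leading genes higher in MAR_C3 controls. Zfp575 had 58.7, 65.2 and 74.0 CPM (lowest, median, highest) in IgG/RNA/FcRn controls and 64.8, 83.3 and 94.8 in MAR_C3 controls. Zfp641 had 13.0, 19.4 and 22.9 against 20.2, 28.4 and 31.9 CPM. For each of the 2 genes, 11 of 12 MAR_C3 controls were above the highest control of the other series, although the ranges overlapped. The log2 differences were 0.33 (SE 0.052, FDR 2.62e-05) for Zfp575 and 0.52 (SE 0.086, FDR 3.84e-05) for Zfp641 by edgeR's quasi-likelihood test. Zfp395, a DNA-binding protein first described at the huntingtin gene's promoter, was 0.40 higher (SE 0.075, FDR 0.000179 by edgeR), at 15.2, 16.6 and 19.3 CPM against 8.29, 12.3 and 16.6.

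Zfp609 (chr8:66214555-66317977), a regulator of cortical neuron migration, led the lower side. It had 148.4, 162.9 and 202.8 CPM in IgG/RNA/FcRn controls and 110.2, 129.2 and 164.1 in MAR_C3 controls, with 11 of 12 of the latter below the lowest of the former. The difference was -0.35 (SE 0.060, FDR 6.75e-05, edgeR). Zfp148 differed by -0.24 on the log2 scale (SE 0.046, FDR 0.000186, edgeR), at 69.0, 73.4 and 76.3 CPM against 74.8, 84.7 and 100.4. The calls for Zfp575, Zfp641, Zfp609, Zfp395 and Zfp148 held in all 16 alternative settings run for this comparison.

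The role lists moved in both directions between the control series. Of 9 neural development genes, Zfp423 was higher (0.47, FDR 0.00323 by edgeR) and 4 were lower: Zfp503 (-0.62, FDR 0.0666), Zfp703 (-0.29, FDR 0.00118), Zfp148 and Zfp365 (-0.13, FDR 0.0727). Zfp423 had medians of 97.4 against 64.8 CPM. Of 8 RNA or protein handling genes, 3 were lower (Zfp207 by -0.21, Zfp638 by -0.21 and Zfp622 by -0.19) and none was higher. Of the imprint guardians, Zfp445 was lower (-0.10, FDR 0.0764 by edgeR), while Zfp57 was not called, at medians of 53.1 and 52.8 CPM. Zfp281 (-0.24) and Zfp143 (-0.23) were lower. Zfp951 was lower (-0.63, FDR 0.0124 by edgeR) at median levels of 0.913 and 1.38 CPM, near the filter bound.

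Markers of other regions moved with this comparison. The summed level of the thalamus list (4 of 5 genes in the table, all 4 higher) had a median of 728.4 CPM in MAR_C3 controls (268.8 to 915.6) and 63.1 CPM in the others (43.9 to 122.6). Choroid plexus markers (5 of 5 higher) had 698.5 (132.8 to 2827) and 10.01 CPM (1.87 to 106.1). Cortical markers (5 of 6 lower) had 825.0 (745.3 to 1148) and 1378 CPM (1114 to 1806), and 5 of 6 striatal and interneuron markers were lower. Thalamic Tcf7l2 and Lhx9, for example, differed by 5.22 and 4.30 on the log2 scale and were higher in MAR_C3. The part of these markers in the members' differences was not tested. In bulk tissue, fewer cells of a type and less RNA per cell cannot be told apart.

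**Figure D2:**
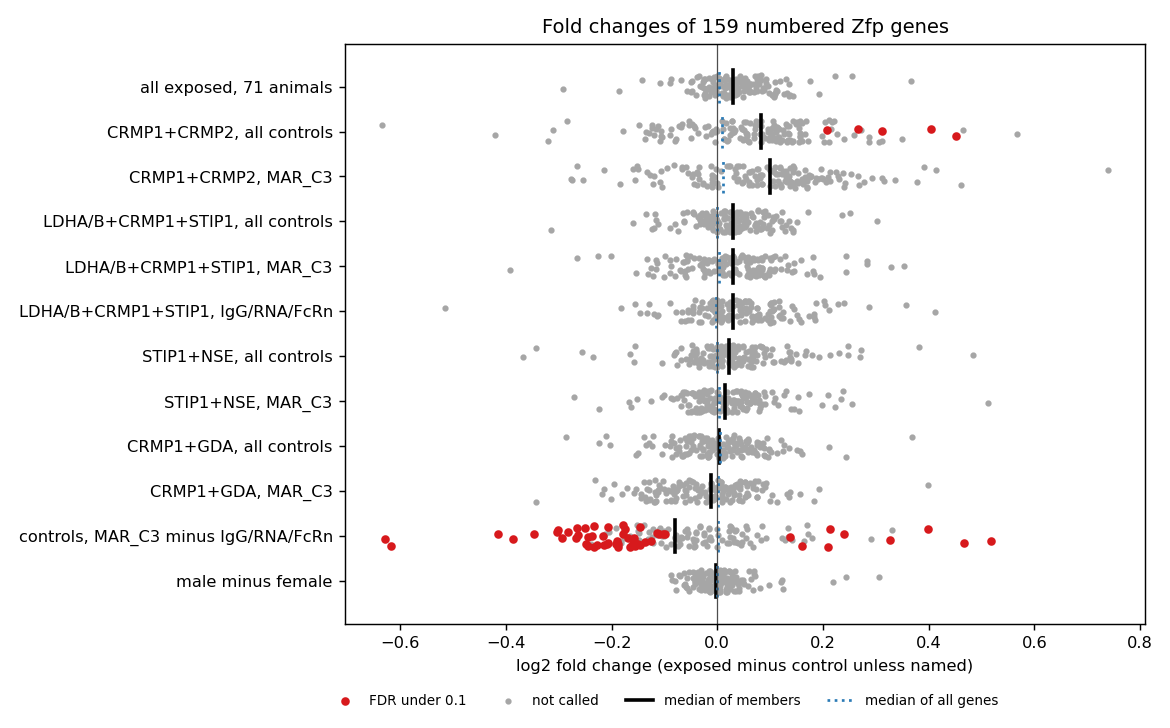
Log2 fold change of each of the 159 numbered Zfp genes (points) in 12 comparisons, with genes at FDR under 0.1 in red, the members' median as a black bar and the median of all genes as a dotted blue bar. Calls are seen in 2 of the 12: 47 lower and 9 higher between control series, and 5 higher for CRMP1+CRMP2 against all controls.

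The main question of the design was whether MARA-AB exposure changed expression. Over all 47 exposed pups against 24 controls, with a surrogate variable as covariate, no member was called at FDR under 0.1 by edgeR's quasi-likelihood test, where 0.0321% of all genes were called (all of those higher). At an unadjusted p under 0.05, 20 members were higher and 1 lower, against 6.08% and 4.19% of all genes. DESeq2 called 1 member, a count given without its share of all genes. The median member was 0.030 higher and 115 of 159 (72.3%) were above 0 against 51.8% of all genes. The smallest p belonged to Zfp112 (rn7 chr1:79676933-79691994), 0.25 higher on the log2 scale (SE 0.066, FDR 0.204 by edgeR), followed by Zfp709 (0.11, FDR 0.304) and Zfp84 (0.13, FDR 0.327). Without the LDHA/B+CRMP1+STIP1 pups, 12 members were called (7 higher, 5 lower), with 17.3% of all genes. All exposed pups left there carry MAR_C3 titles, whereas 12 of the 24 controls do not. Title series was not a term, so exposure and series are partly mixed in that fit.

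Calls at this threshold were made for pups exposed to CRMP1+CRMP2. Against all 24 controls, 5 members were higher and none lower at FDR under 0.1 by edgeR, a share of 3.14% where 4.77% of all genes were higher and 6.59% lower. Before adjustment, at p under 0.05, 26 members were higher and 7 lower (16.4% and 4.4%), against 11.5% and 13.1% of all genes. The median member was 0.083 higher, and 116 of 159 were above 0 (73%, against 52.3% of all genes). The 5 are Zfp112, Zfp217 (chr3:158892265-158902986), Zfp398 (chr4:76849681-76876243), Zfp84 (chr1:84987379-85002370) and Zfp397 (chr18:15242085-15248304), the last of them known as a centromere-associated protein. Their log2 fold changes were 0.40 (SE 0.11, FDR 0.0333) for Zfp112, 0.45 (SE 0.13, FDR 0.0431) for Zfp217, 0.27 (SE 0.086, FDR 0.0641) for Zfp398, 0.21 (SE 0.074, FDR 0.0876) for Zfp84 and 0.31 (SE 0.11, FDR 0.0945) for Zfp397.

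All 8 pups exposed to CRMP1+CRMP2 carry MAR_C3 titles, so the 12 MAR_C3 controls are their own series. Zfp112 had 6.35, 7.14 and 8.99 CPM in the exposed pups (lowest, median, highest), 3.28, 5.59 and 7.33 in MAR_C3 controls, and 5.05, 6.05 and 7.88 in IgG/RNA/FcRn controls. All 8 exposed pups were above the MAR_C3 control median, and 4 were above the highest MAR_C3 control. Zfp217 had 4.76, 5.81 and 7.83 CPM, against 2.95, 4.37 and 5.59 in MAR_C3 controls and 1.87, 4.01 and 5.41 in the others. Here too 8 of 8 were above the MAR_C3 control median, and 5 were above the highest. Zfp398 had 20.3, 21.3 and 28.8 CPM against 14.9, 19.1 and 22.2 in MAR_C3 controls, with 8 of 8 above the median. Zfp84 (29.8, 37.8 and 46.2 against 27.1, 32.5 and 38.1 CPM) and Zfp397 (9.10, 12.6 and 17.6 against 6.99, 9.67 and 12.8 CPM) had 7 and 6 of 8 above it. The groups overlapped for each of the 5 genes.

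**Figure D3:**
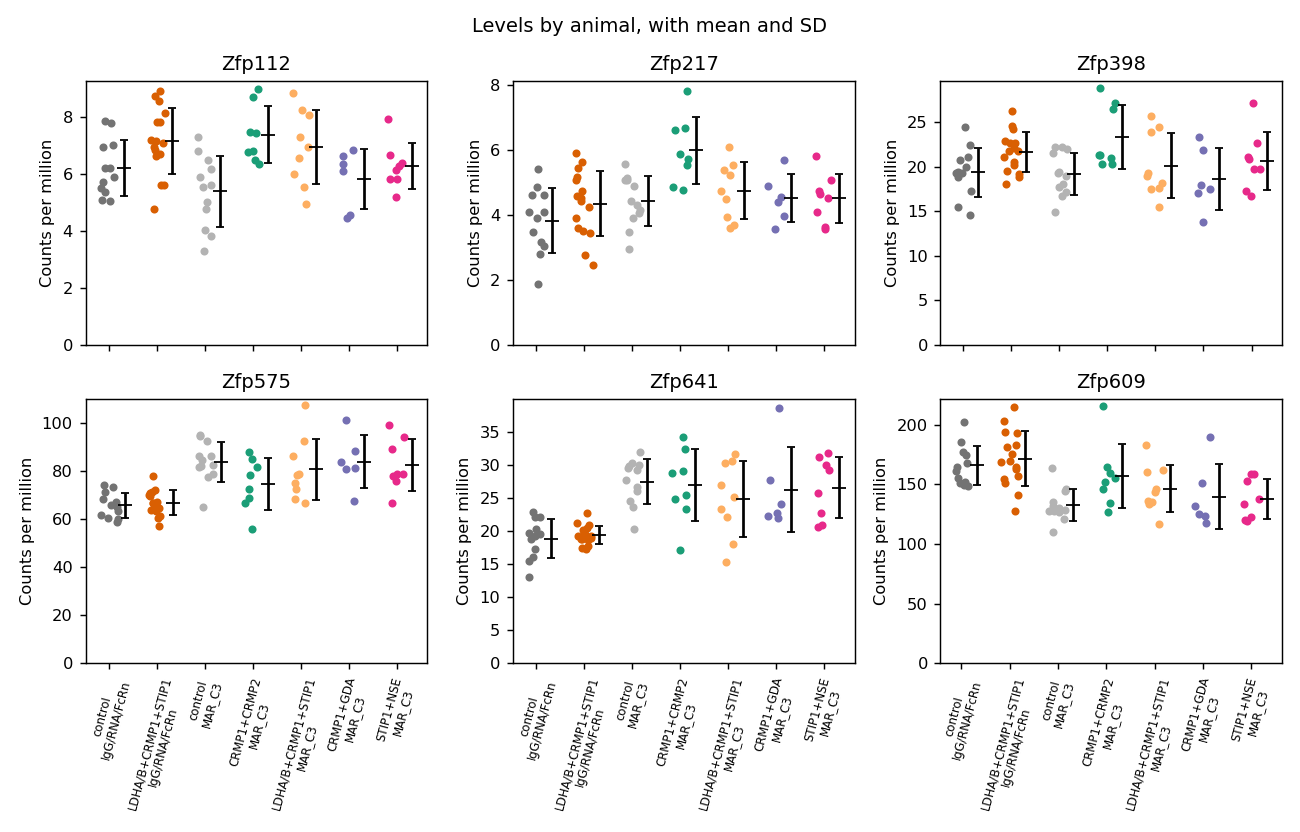
CPM in each pup (points) with mean and SD (black) by group and title series, for Zfp112, Zfp217 and Zfp398 (top) and Zfp575, Zfp641 and Zfp609 (bottom), on axes that start at 0. The CRMP1+CRMP2 pups lie at 6.35 to 8.99 CPM for Zfp112, overlapping the MAR_C3 controls at 3.28 to 7.33, and in the bottom row the control groups of the 2 series stand apart with slight overlap.

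Within MAR_C3 alone the same 5 genes had log2 fold changes of 0.46 (Zfp112), 0.41 (Zfp217), 0.27 (Zfp398), 0.21 (Zfp84) and 0.34 (Zfp397). None passed the threshold by edgeR's quasi-likelihood test (FDR 0.105, 0.113, 0.195, 0.219 and 0.243), and no member did, where 0.176% of all genes were higher and 0.208% lower. DESeq2 called 3 members, all higher, a count given without its share of all genes. At an unadjusted p under 0.05, edgeR gave 25 higher and 4 lower, against 8.94% and 9.47% of all genes. The median member was 0.099 higher, with 116 of 159 above 0 (73%, against 52.8% of all genes). By role, the 3 activators and stem cell regulators were all above 0 (median 0.18), as were both imprint guardians (0.10), while 4 of 9 neural genes were (median -0.027). The 43 members on chromosome 1 had a median of 0.12 and the others 0.082.

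The CRMP1+CRMP2 calls depended on litters. Without litter 9_6 (2 males) none of the 5 calls was left, and 0.0962% of all genes were called. Without litter 9_1, in contrast, 36 members were called (35 higher, 1 lower), with 5.92% of all genes higher and 6.51% lower. Without 9_16 there were 32 calls (27 higher, 5 lower) with 10.9% and 12.9% of all genes, and without the control litter 9_10 there were 37 (31 higher, 6 lower) with 22.5% of all genes called (11.5% of all genes higher). Leaving out 9_11 gave 2 calls (5.93% of all genes), control litter 9_25 gave 3 (12.3%) and IgG2 gave 2 (6.23%). With litter as a random effect (limma), or with counts summed per litter (edgeR), no member was called, as were 0.369% and 0% of all genes, and before adjustment 11 and 9 members were higher at p under 0.05 and 1 was lower in each. The shares of all genes at that p were 6.73% higher and 8.58% lower with the random effect, and 6.07% and 5.97% with summed counts. By litter, Zfp217 was 6.25, 6.30, 6.12 and 5.31 CPM in litters 9_1, 9_6, 9_11 and 9_16, and 4.79, 3.85, 4.87 and 4.60 CPM in the MAR_C3 control litters 9_5, 9_10, 9_15 and 9_25. Each exposed litter thus exceeded each control litter of MAR_C3 for Zfp217, a gene picked for its small p in these pups. For Zfp112 the litters overlapped, at 6.42, 8.86, 7.47 and 6.80 against 7.08, 6.05, 5.29 and 3.99 CPM.

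Some pups of this exposure had high levels of markers of other tissue. Of the 8 pups exposed to CRMP1+CRMP2, 4 had a summed Hox or pineal marker level over 10 CPM, compared with none of 12 MAR_C3 controls and 1 of 12 IgG/RNA/FcRn controls. The summed pineal level (5 genes) ran from 3.17 to 249.0 CPM in these pups and from 2.73 to 6.58 CPM in MAR_C3 controls. Hox genes, which mark hindbrain and spinal cord, ran from 0 to 64.1 and from 0 to 0.932 CPM. The medians were close, at 5.70 and 4.13 CPM for pineal and 0.0277 and 0.0680 CPM for Hox markers, so the high levels were those of single pups. Choroid plexus markers were higher in 5 of 5 (median 1118 CPM, range 191.9 to 3245, against 698.5, range 132.8 to 2827), with ranges that overlapped widely. Over all 71 libraries 12 were above this bound, of which 4 exposed pups and 1 IgG/RNA/FcRn control were in the comparison with all controls. Without them, no member was called by edgeR (0.00801% of all genes), with 4 pups left in the group. The median fold change of the members was then 0.085, with 117 of 159 above 0. Zfp217 was then at 0.31, compared with 0.45 in all libraries. Zfp112, Zfp398, Zfp84 and Zfp397 were at 0.40, 0.26, 0.25 and 0.33, and the edgeR FDR of these genes was 0.37 to 0.513. The part of other tissue in the single calls was not tested beyond this.

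Litter numbers in the MAR_C3 titles carried a pattern of their own. The numbers cycle through the groups in runs of 5, with CRMP1+CRMP2 first, then STIP1+NSE, then CRMP1+GDA, then the LDHA/B pattern and the control litter last, and what a run stands for is not given in the sources used here. The authors gave litters that were born and collected within days of each other a shared collection cohort. The cohort of each litter was not used here, and whether the runs match the cohorts was not tested. The mean log2 deviation of the members from their own means was below 0 in all 5 litters numbered 1 to 5 (-0.174 to -0.0705) and above 0 in all 5 litters numbered 6 to 10 (0.0223 to 0.135), whatever the group. It was -0.0284 to 0.0794 in the 4 litters of the next run, -0.102 to -0.00848 in the 4 after that, and -0.108 and 0.106 in the last 2. Litters of 1 run thus had the same sign in the first 2 runs, across exposures. The slope of all genes on gene length, in log2 per doubling of length, ran from -0.127 to 0.0157 in the litters of the first run and from 0.0229 to 0.124 in those of the second, so these ranges did not overlap. The part of length in the members' deviations by litter was not tested. Control litters fell in 4 runs and CRMP1+CRMP2 litters in 4, of which 3 were shared.

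**Figure D4:**
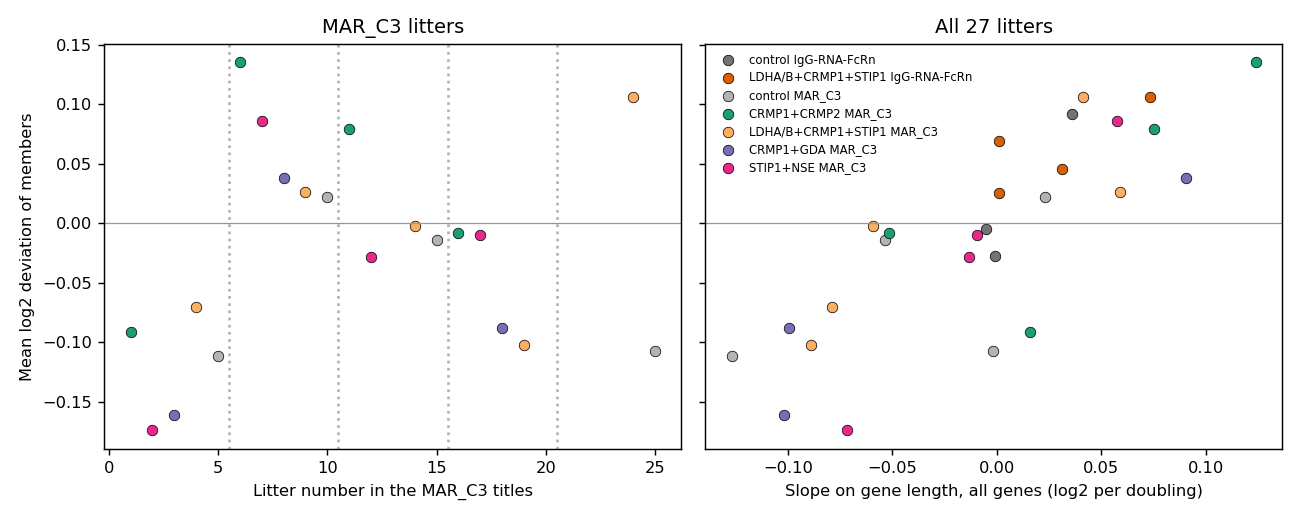
Left, mean log2 deviation of the 159 members in each MAR_C3 litter by its number in the titles, with dotted lines between runs of 5. Right, the same measure against the slope of all genes on gene length (log2 per doubling) for all 27 litters. Litters 1 to 5 lie below 0 and litters 6 to 10 above it in every group.

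Set against the control litter of its own run, the CRMP1+CRMP2 litter had the higher member mean in 3 of 3 runs, by 0.020, 0.11 and 0.094 on the log2 scale. The LDHA/B+CRMP1+STIP1 litter did in 4 of 4, by 0.041, 0.0043, 0.012 and 0.21. The last value rests on 1 pup, the single female of litter 9_24, against the 4 males of control litter 9_25. Litters 9_16 to 9_19 had no control litter in their run and were left out, among them LDHA/B+CRMP1+STIP1 litter 9_19 at -0.102. STIP1+NSE litters differed by -0.063, 0.064 and -0.014 and CRMP1+GDA litters by -0.050 and 0.015, so these groups had no common direction. Among the single genes picked for their small p in these same pups, Zfp217, Zfp398 and Zfp397 were higher in the CRMP1+CRMP2 litter in 3 of 3 runs. Because of that choice, the direction by run is not separate support. Zfp217 was 6.25 against 4.79, 6.30 against 3.85 and 6.12 against 4.87 CPM. Zfp112 and Zfp84 were lower in the first run and higher in the other two.

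With the run as a term, a model chosen after seeing the data, 58 members were called for CRMP1+CRMP2 within MAR_C3 by edgeR (49 higher, 9 lower), as were 38.8% of all genes (20.1% higher, 18.8% lower). With the run as a term and counts summed per litter, so that littermates no longer counted as separate samples, 43 members were called (39 higher, 4 lower), where 27.2% of all genes were (14.4% higher, 12.8% lower). The share of members called in either direction (43 of 159) was close to that of all genes. In the latter fit Zfp398 had a log2 fold change of 0.37 (FDR 0.00669), Zfp397 of 0.46 (FDR 0.0106), Zfp217 of 0.43 (FDR 0.0405) and Zfp112 of 0.38 (FDR 0.0983) by edgeR, and Zfp84 was not called (0.21, FDR 0.243). The same fit called no member in the other 3 exposed groups of the series, where no gene at all was called. At p under 0.05 before adjustment, 12 members were higher and 2 lower for LDHA/B+CRMP1+STIP1 (4.99% and 4.21% of all genes), 1 and 1 for CRMP1+GDA (2.39% and 1.77%) and 17 and 2 for STIP1+NSE (7.45% and 5.63%).

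Pups exposed to LDHA/B+CRMP1+STIP1 were the only ones in both series. No member was called against all controls, within MAR_C3 (9 against 12) or within the IgG/RNA/FcRn series (16 against 12) by edgeR at FDR under 0.1, where 0.00801%, 0% and 0.016% of all genes were called, and DESeq2 called none in any of the 3. Counting unadjusted p-values below 0.05, 18 members were higher and 2 lower against all controls (3.98% and 3.24% of all genes), 10 and 0 within MAR_C3 (2.82% and 1.88%) and 14 and 1 within IgG/RNA/FcRn (2.77% and 2.52%). The median member was 0.029, 0.030 and 0.030 higher, with 105, 107 and 104 of 159 above 0 (66%, 67.3% and 65.4%, against 49.3%, 52% and 48.2% of all genes). The 2 series share no animal, so the small median was seen in separate pups. It was below the SD of the members' median deviation among control pups of a series, 0.078 on the log2 scale. That SD is a spread of single pups and not the error of a difference between groups, so it does not give the uncertainty of the median. The members' mean deviation overlapped between exposed and control litters in both series. In IgG/RNA/FcRn, for example, control litter RNA4 was at 0.092 and exposed litters RNA1 and RNA2 were at 0.046 and 0.025.

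Zfp112 was 0.35 higher within MAR_C3 (SE 0.12) and 0.20 higher within IgG/RNA/FcRn (SE 0.095), at edgeR FDR of 0.954 and 0.921. Its CPM in these exposed pups was 4.95, 6.96 and 8.85 in MAR_C3 and 4.78, 7.14 and 8.92 in IgG/RNA/FcRn, with 7 of 9 and 13 of 16 above the control median of the series. Zfp786 had the smallest p against all controls (0.17, SE 0.053, FDR 0.338 by edgeR). Its medians were 23.4 against 19.05 CPM within IgG/RNA/FcRn, where 14 of 16 pups were above the control median, and 20.9 against 19.6 CPM within MAR_C3. Neither gene passed the correction.

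Markers of other tissue stood at different levels in these groups within MAR_C3, and their part in the values above was not tested beyond what follows. Of the 9 exposed pups, 3 had a summed Hox or pineal level over 10 CPM and none of the 12 controls did, with Hox up to 91.8 CPM. Thalamus markers had a median of 516.0 CPM (68.7 to 814.5) against 728.4 (268.8 to 915.6), and choroid plexus markers 1308 (371.4 to 2152) against 698.5 (132.8 to 2827). In the IgG/RNA/FcRn series, none of 16 exposed pups and 1 of 12 controls were over the bound, and thalamus markers stood at 62.3 and 63.1 CPM. Without the libraries over the bound, a setting chosen after seeing the data, 3 members were higher and none lower against all controls by edgeR, where 1.15% of all genes were higher and 1.02% lower. They were Zfp786 (0.18, FDR 0.0921), Zfp112 (0.27, FDR 0.0973) and Zfp319 (0.16, FDR 0.0558). Within MAR_C3 no member was called without them, with 13 higher and 7 lower at p under 0.05 before adjustment (6.31% and 6.69% of all genes).

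A difference between the series was tested for this exposure itself. No member was called for the interaction by edgeR (0.0401% of all genes were), with 5 positive and 1 negative at p under 0.05 before adjustment, against 1.68% and 1.31% of all genes, or by DESeq2. The smallest p was that of Zfp180, which lies 4196 bases from Zfp112. It was 0.24 higher within MAR_C3, at 125.4, 162.8 and 182.0 against 110.4, 131.4 and 150.5 CPM in controls, and differed by -0.061 within IgG/RNA/FcRn, at medians of 133.2 and 142.9 CPM. The interaction was 0.30 (SE 0.083, FDR 0.917 by edgeR), which does not pass the correction.

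Pups exposed to CRMP1+GDA or STIP1+NSE gave no called member by edgeR or DESeq2, against all controls or within MAR_C3. The shares of all genes called by edgeR were 0% and 0% for CRMP1+GDA and 0.00801% and 0% for STIP1+NSE. At an unadjusted p under 0.05, CRMP1+GDA had 0 higher and 0 lower against all controls (1.61% and 1.85% of all genes) and 1 and 2 within MAR_C3 (2.9% and 1.8%). STIP1+NSE had 6 and 1 (1.51% and 1.66%) and, within MAR_C3, 2 and 1 (1.37% and 0.809%). The members' medians within MAR_C3 were -0.012 (66 of 159 or 41.5% above 0, against 50.5% of all genes) and 0.015 (90 of 159 or 56.6%, against 51.6%). Of named genes, Zfp653 had -0.21 (95% interval -0.37 to -0.058) and Zfp319 had 0.16 (0.0085 to 0.30) for CRMP1+GDA within MAR_C3. Zfp799 had 0.20 (0.045 to 0.35) and Zfp709 had 0.17 (0.024 to 0.32) for STIP1+NSE. None passed the correction, as the smallest FDR of any member was 0.9999 and 0.9996 by edgeR. These genes were picked for their small p, so intervals clear of 0 follow from that choice. With the run of litter numbers as a term, 10 members were called for STIP1+NSE within MAR_C3 by edgeR (8 higher, 2 lower), where 3.23% of all genes were higher and 3.58% lower, and none for CRMP1+GDA (0.0481% of all genes).

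Across the 5 comparisons within a series, 19 members were above 0 in all 5, 47 in 4, 41 in 3, 29 in 2, 19 in 1 and 4 in none. These counts are given without the shares of all genes, so they do not set the members against all genes. Of the 5 comparisons, 4 share the same 12 control pups, so they are not separate observations. Between males and females no member was called by edgeR (0.0641% of all genes were), with 4 above and 2 below 0 in males at p under 0.05 before adjustment, against 1.92% and 2.75% of all genes, or by DESeq2. The smallest p was that of Zfp410 (-0.072 in males, SE 0.025, FDR 0.991 by edgeR).

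Fold changes rose with gene length in some comparisons. Spearman's rho between length and log2 fold change, across genes and as a description, was 0.40 over the members and 0.35 over all genes for CRMP1+CRMP2 within MAR_C3, and 0.38 and 0.30 against all controls. It was 0.20 and 0.18 for all exposed pups, -0.09 and -0.08 for LDHA/B+CRMP1+STIP1 within MAR_C3, 0.13 and 0.16 within IgG/RNA/FcRn, and -0.06 and -0.12 between the control series. Genes of 1 library share depth and composition, so they are not independent points.

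For CRMP1+CRMP2 within MAR_C3, the median log2 fold change of members was -0.009 at 1000 to 2000 bases (30 members), 0.062 at 2000 to 3000 (57), 0.13 at 3000 to 4000 (39), 0.12 at 4000 to 6000 (18) and 0.19 above 6000 bases (14). For other genes of the same lengths it was -0.038, 0.016, 0.050, 0.091 and 0.17. Members were thus above other genes in each of the 5 bins, by less than the rise along the bins. The 2 longest bins hold under 20 members each. The longest member, Zfp292 (9965 bases), and the shortest, Zfp7 (571 bases), mark the ends of the range.

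**Figure D5:**
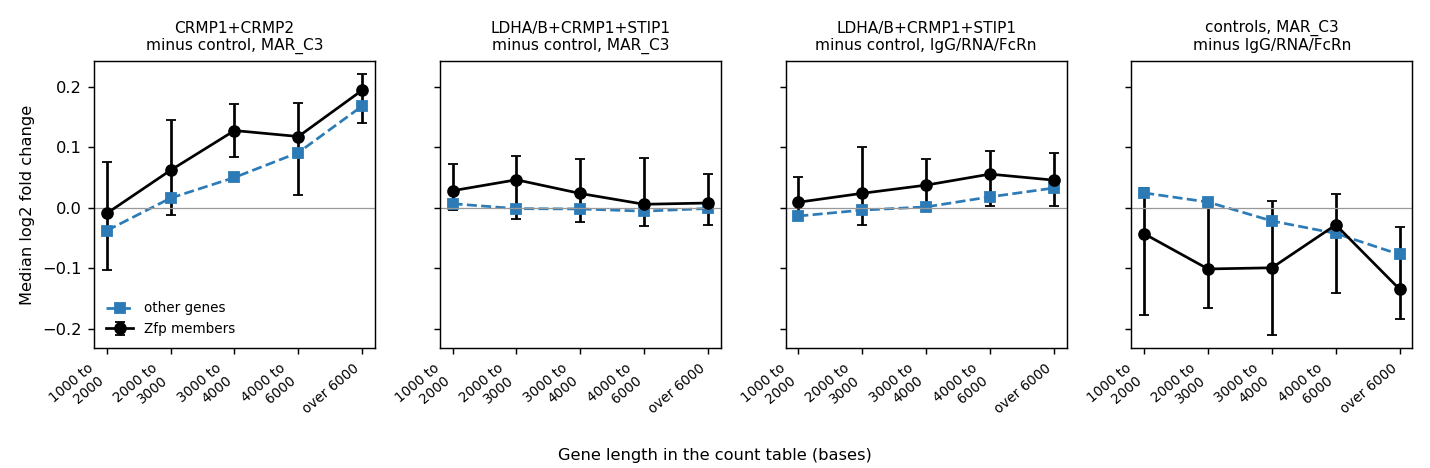
Median log2 fold change by bin of gene length in bases, for members (black, with quartiles) and other genes (blue), in 4 comparisons. For CRMP1+CRMP2 within MAR_C3 the longest bin is the highest on both lines, with members at -0.009 in the bin of 1000 to 2000 bases, 0.13 and 0.12 in the middle bins and 0.19 above 6000 bases, while for the control series members lie below other genes in 4 of 5 bins.

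When the trend on length was removed from each library, the members' median became 0.046 for CRMP1+CRMP2 within MAR_C3 (105 of 159 above 0) and 0.020 against all controls (94 above 0). Against all controls, 3 members were then higher and 6 lower at FDR under 0.1 by edgeR, with 13.4% of all genes called. For all exposed pups the median became 0.017 (104 above 0), and for LDHA/B+CRMP1+STIP1 it was 0.025 within MAR_C3 and 0.026 within IgG/RNA/FcRn. In contrast, the difference between control series did not follow length in members, with bin medians of -0.043, -0.10, -0.099, -0.028 and -0.13, against 0.025, 0.010, -0.022, -0.042 and -0.077 for other genes. It was -0.098 after removal, with 57 members lower and 10 higher at FDR under 0.1 by edgeR, where 44.4% of all genes were called.

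Other families of zinc finger genes and the partners of KRAB proteins were read beside the members. Of 18 KRAB cofactors tested, 2 were higher for CRMP1+CRMP2 against all controls by edgeR: Atf7ip, a partner of Setdb1 (0.21, FDR 0.099), and Morc3 (0.19, FDR 0.096). Over all genes, 4.77% were higher there and 6.59% lower. Between control series 11 were lower and 1 (Cbx5, a heterochromatin protein) was higher, with a list median of -0.14, where 20.1% of all genes were lower and 21.4% higher. Trim28 was -0.097 there (FDR 0.0605 by edgeR) and Setdb1 was -0.073 and not called. Of 32 Zbtb genes, 2 were higher for CRMP1+CRMP2 (Zbtb10 by 0.23 and Zbtb21 by 0.20), and 9 were lower and 4 higher between control series. Over all exposed pups, 29 of 32 Zbtb genes (median 0.061) and 15 of 18 KRAB cofactors (median 0.031) were above 0, against 51.8% of all genes. None was called by edgeR, and 6 and 0 were higher before adjustment at p under 0.05, where 6.08% of all genes were. Of 5 Zkscan genes, Zkscan7 was higher for CRMP1+CRMP2 (0.36, FDR 0.0447 by edgeR). None of these 5 genes stayed called once litters were taken into account: with counts summed per litter each had an edgeR FDR of 0.409 and 0 of 12477 genes were called, and with litter as a random effect (limma) the FDR was 0.205 for Zkscan7 and 0.234 to 0.292 for the others.

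Several lists had calls on both sides or none. Of 15 Klf genes, 4 were higher and 6 lower between control series, and none was called for CRMP1+CRMP2. Of 6 Sp genes, Sp8 was lower for CRMP1+CRMP2 (-0.95, FDR 0.0618 by edgeR, and 0.409 with counts summed per litter), and 3 were lower between control series. The 2 Zscan genes tested had no call in these comparisons. Of 19 other Zfp symbols, 3 were higher and 2 lower between control series, and none was called for CRMP1+CRMP2.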

How the data were processed

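The authors deposited raw counts per gene for 71 poly-A RNA libraries, made with STAR 2.5.4b and featureCounts on the rat genome rn7, with exonic lengths. Of the counts from 1 to 9, 74.5% were even, so whether the mates of a read pair were counted separately is open, and with it how many fragments a count stands for. Fits were repeated with counts halved. No columns were left without a sample. Levels were computed as CPM (count over column total) and RPKM. Members were rows named Zfp plus digits with at least 1 CPM in at least 8 libraries. The members and lists were chosen with earlier results of these data known. Tests used edgeR 4.0.16 in R 4.3.3 (TMM, robust quasi-likelihood, Benjamini-Hochberg over 12477 genes, FDR under 0.1), with the first surrogate variable of sva 3.50.0 or, within series, sex. Alternatives used DESeq2 1.42.0, limma 3.58.1, other filters, covariates, litter terms and litters left out. Replicate numbers are only names, in accession order, and littermates share a dam, so p-values measure the spread between these pups. Scripts were tested on simulated data. Named genes were role list members, those with the smallest p per comparison (5 for CRMP1+CRMP2 and the control series, otherwise 3), extremes of level and length, and those nearest the filter. Zfp142, named for an exon overlap, and cofactors and genes of other families, named as the called members of their lists, were chosen after their values were seen. Intervals are the estimate with 1.96 SE either side. Promoter sequences are RefSeq's, on GRCr8, whereas gene coordinates are those of the table, on rn7, and no coordinate was converted.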

Additional observations from a re-analysis of the deposited data

Results flagged for a closer look

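Over 4 groups of 6 to 9 pups, 55 named genes and 4 library measures gave 220 and 16 sets of values, and 10 sets held 1 pup whose distance to its nearest neighbour was a large part of the whole range. Chance flags about 1 in 20 such sets. In CRMP1+GDA replicate 4 (litter 9_8), which also had the highest summed Hox level (130.2 CPM), Zfp423 was 147.4 CPM (next 98.5), Zfp521 was 72.3 (next 49.6) and Zfp641 was 38.6 (next 27.6). In the same group, Zfp703 was 46.4 CPM in replicate 1 of litter 9_3 (next 41.6), Zfp7 was lowest, at 1.60 CPM (next 2.39), in replicate 2 of that litter, and Zfp93 was lowest, at 0.780 CPM (next 1.93), in replicate 3 of litter 9_8. In CRMP1+CRMP2, Zfp609 was 216.1 CPM in replicate 3 of litter 9_6 (next 164.5), and Zfp956 was 22.7 CPM in replicate 7 of litter 9_16 (next 18.5). In LDHA/B+CRMP1+STIP1 replicate 9, the single pup of litter 9_24, Zfp638 was 212.0 CPM (next 173.6) and Zfp84 was 47.8 (next 37.8). No explanation of these values was tested. Over the 55 genes, 550 sets of a gene and a pair of exposed groups were checked, and none moved in wholly opposite directions. For each named gene, each exposed group overlapped the controls of its series. With such overlap the check cannot tell whether exposures differ in direction, and no conclusion is drawn from it.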

How the results depend on the processing

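By replicate number, no paired analysis was possible because the numbers are names in accession order and pair no pups. Litters were matched by their run of litter numbers instead. Over all exposed pups, 0 members were called, DESeq2 called 1, and leaving out a pattern gave 0 to 12. For CRMP1+CRMP2 against all controls, where 5 were called, the count was 3 with no filter beyond 10 counts in all, 10 with DESeq2 (8 higher, 2 lower, and 13.7% of all genes), 9 with the length trend removed, 0 with litter as a random effect, 0 with counts summed per litter, 1 with title series and sex as covariates, 42 with 2 principal components as covariates (39 higher, with 10.5% of all genes higher and 9.67% lower), 0 without libraries high in Hox or pineal markers, and 0 to 37 without 1 litter. Within MAR_C3, where 0 were called, it was 2 with a filter over 1 CPM in 2 samples, 3 with DESeq2, 58 with the run of litter numbers as a term (38.8% of all genes), 43 with that term and counts summed per litter (27.2%), and 0 to 22 without 1 litter. For STIP1+NSE within MAR_C3 it was 10 with the run as a term (8 higher, 2 lower, and 6.81% of all genes) and 0 when counts were also summed per litter. For LDHA/B+CRMP1+STIP1 against all controls it was 3 without libraries high in Hox or pineal markers (2.16% of all genes). Between control series 56 were called, with 41.5% of all genes. The count there was 21 with litter as a random effect, 13 with counts summed per litter, and 37 to 64 without 1 litter. The cause of these changes was not tested. Where no share of all genes stands beside a count, the count shows only how calls moved with the setting. It does not set the members against all genes. The marker, run and control litter settings were chosen after seeing the data. With counts halved, the counts of called members were the same in all 13 comparisons. Of 670 values of named genes under alternatives, 603 kept their side of the threshold, 22 came to pass it, 45 no longer passed it and 0 reversed. This total includes many genes that were not called in the main fit. All 45 losses were among the 5 genes called for CRMP1+CRMP2 against all controls. Of 22 alternatives each, Zfp112 passed in 17, Zfp217 in 16, Zfp398 in 14, Zfp84 in 10 and Zfp397 in 8. The median fold change of the members kept its sign under every alternative in 7 of 13 comparisons and changed sign in 15 of 198 values in all, within -0.047 to 0.050 for CRMP1+GDA and -0.0012 to 0.071 for STIP1+NSE against all controls, -0.070 to 0.011 and -0.023 to 0.049 within MAR_C3, -0.032 to 0.013 for the interaction and -0.018 to 0.0043 for sex. For CRMP1+CRMP2 it was 0.020 (length trend removed) to 0.13 against all controls and 0.046 to 0.12 within MAR_C3. With 24.9 to 36.2 counts per CPM, members near 1 CPM rest on few counts.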
